A study of Mus musculus with 10 samples.

Results

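The circular RNA rows of a gene read count table from mouse peritoneal macrophages were examined. All rows whose identifier starts with mmu_circ were taken, which gave 9788 of 39488 rows (24.8%), and no measured value entered the choice. The other rows were 23382 NCBI gene identifiers and 6318 identifiers that start with BGIG. Peritoneal macrophages of C57BL/6 mice aged 8 weeks were elicited with thioglycollate, and total RNA of 5 control and 5 ox-LDL cultures was sequenced on the BGISEQ-500 platform, with one library per biological replicate. In the sample labels the control cells are untreated, whereas the ox-LDL cells received LPS at 100 ng/ml and then oxidized low-density lipoprotein (ox-LDL) at 100 µg/ml for 16 h. Thus, by the labels, the effects of LPS, the bacterial endotoxin sensed by TLR4, and of ox-LDL, the lipoprotein that turns macrophages into foam cells, cannot be told apart in these groups. Thioglycollate draws in monocyte-derived cells, so the cultures stand for an elicited and not a resident population.

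Circular RNAs are formed when the spliceosome joins the end of an exon to the start of the same or an earlier exon, a reaction called back-splicing. The product is a covalently closed ring with no cap and no poly(A) tail, which resists exonucleases and can outlast the linear mRNA of its host gene. In immune cells circular RNAs are known as inhibitors of the antiviral kinase PKR. A read shows that it came from a circle only where it spans the back-splice junction. The tool that assigned reads to the circular rows, and whether the libraries were selected for poly(A), are not given in the sources used here, so a value below is a count assigned to a circular row and not a count of rings. The table gives neither the host gene nor the coordinates of a row, and none was inferred from its number.

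The labelled cell type was checked first. The summed level of 8 macrophage markers was 22723 to 42039 CPM (counts scaled to a common library size) in control and 13125 to 27967 CPM in ox-LDL libraries, and most of it was Lyz2. In 6 of the 8 markers the mean was higher in ox-LDL, against the direction of the sum. Each list of neutrophil, B cell, T cell, mesothelial, erythroid and platelet markers summed to at most 5.34 CPM in any library, and the platelet gene Gp9 was at 0 in all of them. The libraries held 19257131 to 20687289 counts. Control 1, control 4 and ox-LDL 2 stood apart from the other libraries of their own group, since their counts leaned toward short genes. A Spearman correlation was taken across 7970 genes between a gene's deviation from its group mean and its length. It thus compares libraries within a group only. It was -0.754 to -0.611 in these 3 libraries and 0.19 to 0.625 in the other 7. The TMM scaling factor, which corrects the library size for such shifts in composition, was lowest in ox-LDL 2 (0.575).

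Every one of the 97880 values in the circular rows was an even number, so the smallest value above 0 was 2. Of the 66465 values above 0, 14452 (21.7%) were equal to 2. In the other rows 18.0% of the values were not whole, and 56.1% of the whole values above 0 were odd. No circular value of 1 occurred, and detection at 1 or at 2 counts was the same. Why the values were even is not given in the sources used here, so it is open whether a value of 2 is 1 read pair or 2 reads.

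Circular RNA rows were widely but thinly detected. Counts were present in 9643 rows in at least 1 library, in 3588 rows in all 10 libraries and in 943 rows in a single library, and 145 rows were at 0 throughout. The mean level was under 0.1 CPM in 3395 detected rows, 0.1 to 1 CPM in 4292, 1 to 10 CPM in 1707, 10 to 100 CPM in 235 and above 100 CPM in 14. Those 14 rows carried 31.1% of the summed mean level, and 87 rows carried 50% of it.

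The share of a library's counts assigned to circular rows, which is not a share of RNA molecules, was examined next. It was 1.90%, 1.95%, 1.92%, 2.00% and 2.02% in the control libraries 1 to 5. In the ox-LDL libraries 1 to 5 it was 1.92%, 1.44%, 1.79%, 2.24% and 1.63%. The control libraries were close together, whereas ox-LDL 2 lay below and ox-LDL 4 above every other library. The mean was 1.96% ± 0.0513 (SD, n = 5) in control and 1.80% ± 0.301 (SD, n = 5) in ox-LDL, and the difference of -0.157 percentage points was not significant (p = 0.302, two-sided exact permutation test over 252 arrangements, smallest possible p 0.00794). Fewer cells of a type and less RNA per cell cannot be told apart in bulk samples. Without ox-LDL 4 the difference was -0.266 percentage points (p = 0.0159, exact permutation test, n = 5 and 4), and without ox-LDL 2 it was -0.0672 (p = 0.587, exact permutation test, n = 5 and 4). Without the most abundant circular row it was -0.0101 (1.68% against 1.67%, p = 0.952, exact permutation test, n = 5 each). Scaled by TMM it turned to 0.0882 percentage points higher in ox-LDL (p = 0.690, exact permutation test, n = 5 each), so its size and direction depended on the scaling, on single libraries and on 1 row.

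**Figure D1:**
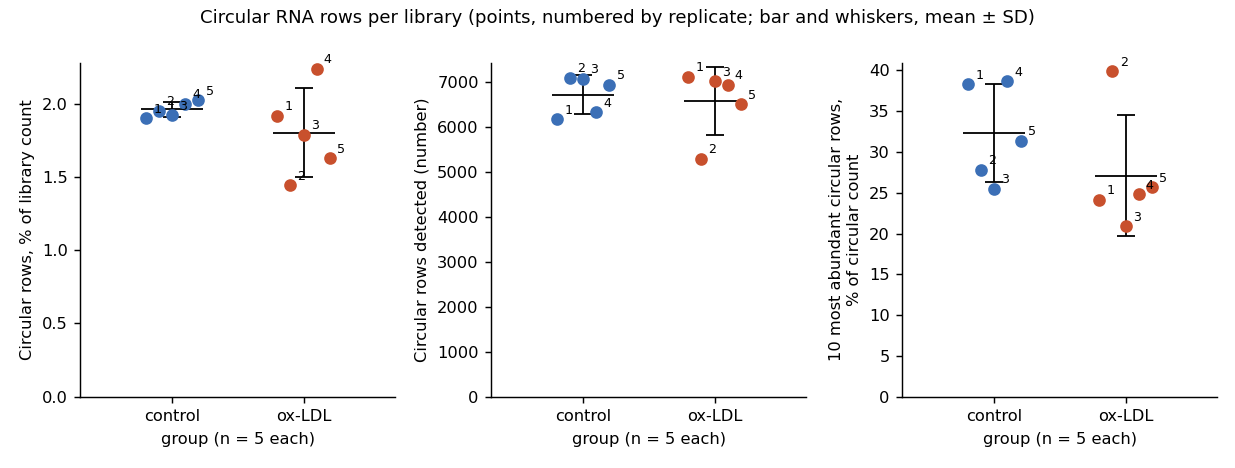
Circular RNA rows in each library, with the group on the x axis and, in separate panels, the percent of counts in circular rows, the number of rows detected and the percent of circular counts in the 10 most abundant rows on the y axes. Points are libraries numbered by replicate, and bars and whiskers are the mean and SD of 5 libraries. The 5 control libraries sit between 1.90% and 2.02% of counts, while the ox-LDL libraries spread from 1.44% to 2.24%.

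The high share of ox-LDL 4 lay in a small block of rows. Among the rows tested below, 21 followed the profile of mmu_circ_0015509 with a Pearson r of at least 0.95 across the 10 libraries, and 17 of them were numbered between mmu_circ_0015494 and mmu_circ_0015511. These rows were chosen after their values were seen, and are given with no test of their sum. Together they held 392, 2354, 8794, 684 and 606 counts in the control libraries 1 to 5. They held 25620, 1076, 19056, 93774 and 436 counts in the ox-LDL libraries 1 to 5. In ox-LDL 4 the block made up 21.8% of all circular counts, in ox-LDL 1 6.78%, in ox-LDL 3 5.47% and in the other 7 libraries 0.102% to 2.26%. The groups overlapped, since ox-LDL 2 and ox-LDL 5 held fewer counts in the block than control 2 and control 3.

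The block itself did not separate the groups. Its 21 rows had a log2 fold change of 3.40 to 3.72 and an adjusted p of 0.0423 to 0.0615 (edgeR), so none passed. For example, mmu_circ_0015509 had 20, 200, 714, 58 and 50 counts in control and 2102, 88, 1558, 7580 and 40 counts in ox-LDL libraries, with a log2 fold change of 3.56 (SE 1.24). The number of other rows with counts was highest in the same libraries, at 23081 in ox-LDL 4, 20966 in ox-LDL 1, 20029 in ox-LDL 3 and 19756 in control 3, against 17426 to 18667 in the rest. Its part in the block was not tested. Without the block, circular rows held 1.88% to 2.02% of counts in the control libraries (1.95% ± 0.0607, SD, n = 5) and 1.44% to 1.79% in the ox-LDL libraries (1.66% ± 0.140, SD, n = 5), and the groups no longer overlapped. This is a description, because the rows left out were picked on the same values.

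Detection was compared as the number of circular rows with at least 1 count. It was 6176, 7092, 7071, 6322 and 6941 rows in the control libraries and 7113, 5294, 7010, 6938 and 6508 rows in the ox-LDL libraries. The fewest rows were found in ox-LDL 2, control 1 and control 4, the libraries that leaned toward short genes. The mean was 6720 ± 437 (SD, n = 5) in control and 6573 ± 751 (SD, n = 5) in ox-LDL, with no significant difference (p = 0.786, exact permutation test). Over the other 7 libraries it was 7035 ± 81.8 in control (SD, n = 3) and 6892 ± 266 in ox-LDL (SD, n = 4), and the difference did not pass either (p = 0.571, exact permutation test). Detection of at least 10 counts gave 3299 ± 360 rows in control and 3163 ± 632 rows in ox-LDL (SD, n = 5 each, p = 0.770, exact permutation test).

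Detection in every library of one group and none of the other was rare. Counts were present in all 5 control libraries for 4563 rows and in all 5 ox-LDL libraries for 4134 rows. Of the 9788 circular rows, 6 had counts in all 5 control and no ox-LDL library, and 4 showed the reverse. The same count was not made over the other rows, so it cannot be set against the table as a whole. The control-only row with the most counts was mmu_circ_0014529, with 4, 6, 12, 10 and 26 counts, at least 9.41-fold higher in control when the summed ox-LDL libraries are set to a floor of 6 counts, or 3 steps of 2. The ox-LDL-only rows were mmu_circ_0015567, mmu_circ_0001204 (2, 12, 14, 6 and 20 counts, at least 9.25-fold higher in ox-LDL), mmu_circ_0002788 and mmu_circ_0011328. The last pair had at most 8 counts per library, as had the control-only rows mmu_circ_0014667, mmu_circ_0007714, mmu_circ_0004047 and mmu_circ_0004134. With values in steps of 2, such rows lie within a few steps of 0, and of those named here only mmu_circ_0015567 had enough counts to be tested.

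The 10 most abundant circular rows of each library held 38.3%, 27.9%, 25.5%, 38.7% and 31.4% of the circular counts in the control libraries and 24.1%, 39.9%, 20.9%, 24.9% and 25.7% in the ox-LDL libraries. The mean was 32.3% ± 5.99 in control and 27.1% ± 7.39 in ox-LDL (SD, n = 5 each), which did not differ significantly (p = 0.238, exact permutation test). Without ox-LDL 2 the difference was -8.45 percentage points (p = 0.0476, exact permutation test, n = 5 and 4), and without the most abundant circular row it was 0.0116 percentage points (p = 1, exact permutation test, n = 5 each).

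A single row, mmu_circ_0000213, was the most abundant by far. It had 79938, 49428, 38898, 79216 and 39644 counts in the control libraries and 29206, 50074, 17634, 17574 and 18154 counts in the ox-LDL libraries. All ox-LDL libraries other than ox-LDL 2 lay below every control library, and ox-LDL 2 lay within the control range. With CPM scaled by TMM, which is the scale of each mean level below, its mean was 2762 ± 1350 in the control and 1656 ± 1518 in the ox-LDL libraries (SD, n = 5 each). The log2 fold change of this row was -0.74 (SE 0.52, adjusted p = 0.341, edgeR). Without ox-LDL 2 it was -1.54 (adjusted p = 0.00434), and over the 7 libraries that did not lean toward short genes -0.91 (adjusted p = 0.0137).

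Of the 10 rows with the highest level, none passed the test at an adjusted p below 0.01. The row with the smallest adjusted p was mmu_circ_0012137, with 2596, 3342, 3484, 3130 and 4496 counts in control and 6212, 3060, 4544, 5076 and 6564 counts in ox-LDL libraries. In counts ox-LDL 2 lay within the control range, and in CPM scaled by TMM the groups did not overlap, with means of 156 ± 20.6 and 271 ± 62.2 CPM (SD, 5 libraries per group), with a log2 fold change of 0.80 (SE 0.21, adjusted p = 0.0147), and it passed without ox-LDL 2 (adjusted p = 0.00836), with each library's length trend as a covariate (adjusted p = 0.00676) and with DESeq2 (adjusted p = 9.39e-04). It did not pass over the 7 libraries (adjusted p = 0.0469), and its adjusted p over the alternatives reached 0.104. The row mmu_circ_0001985 had a log2 fold change of -0.77 (SE 0.54, adjusted p = 0.335), which was -1.65 (adjusted p = 0.00367) without ox-LDL 2 and -0.94 (adjusted p = 0.00587) over the 7 libraries. Thus, mmu_circ_0000213, mmu_circ_0012137 and mmu_circ_0001985 all passed once ox-LDL 2 was left out.

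The second most abundant row, mmu_circ_0002318, differed little in its mean, with means of 822 ± 203 and 815 ± 127 CPM (SD, 5 libraries per group) and a log2 fold change of -0.01 (SE 0.24, adjusted p = 0.980). The third, mmu_circ_0005341, had 590 ± 90.3 CPM and 608 ± 132 CPM, and the sign of its small log2 fold change of 0.05 turned under 3 other scalings. The log2 fold change was 0.75 for mmu_circ_0014123 (adjusted p = 0.203) and 0.54 for mmu_circ_0013040 (adjusted p = 0.198). Without ox-LDL 2 they were 0.13 and 0.21. It was 0.26 for mmu_circ_0006206 (adjusted p = 0.804), a value that turned to -1.01 without ox-LDL 2 (adjusted p = 0.0118) and to -0.56 over the 7 libraries, and that was also negative under 1 other scaling. The neighbouring numbers mmu_circ_0014064 and mmu_circ_0014065 had values of -0.42 and -0.40 (adjusted p = 0.608 and 0.626, edgeR), and their counts moved together, from 3108 and 2602 in control 2 to 10120 and 8794 in control 5.

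**Figure D2:**
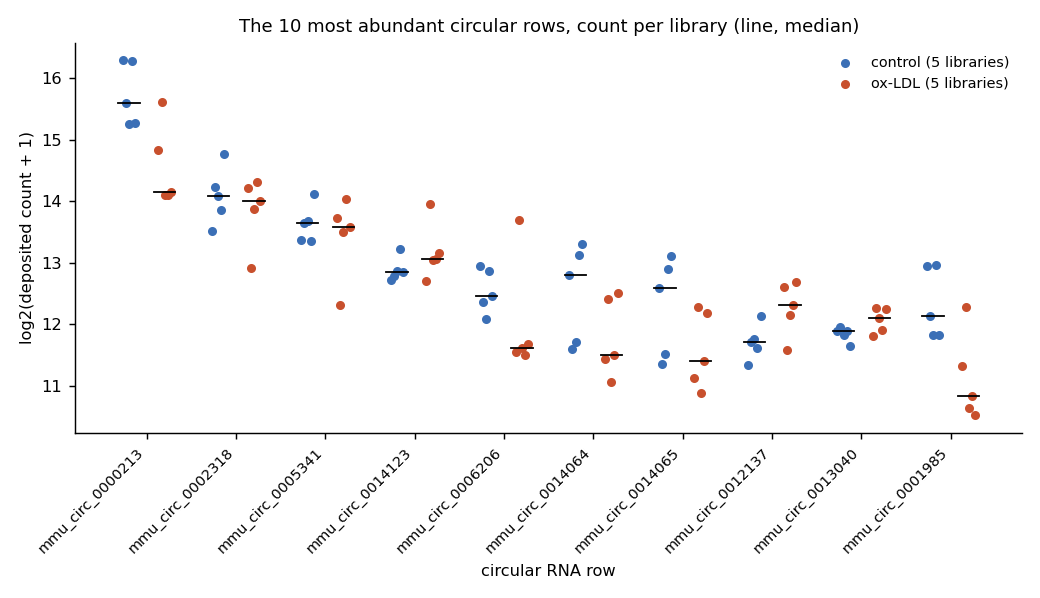
Counts of the 10 most abundant circular RNA rows, named on the x axis, as log2(deposited count + 1) on the y axis, with 1 point per library and the control and ox-LDL libraries side by side. The groups overlap in most rows, and in mmu_circ_0000213 the ox-LDL libraries lie between 17574 and 50074 counts against 38898 to 79938 in control.

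Several of the abundant circular rows tracked single genes of the same table at a steady ratio. For each of the 10 rows, the gene with the most similar profile was sought among 11928 tested genes with a symbol, by Pearson r of log2(CPM + 0.5) over the 10 libraries, a step added after the values were seen. The libraries share depth and the length trend, so these correlations are given as a description and with no p. The highest r was 0.966 to 0.997. For mmu_circ_0000213 the gene was Lyz2, the lysozyme of macrophages (r = 0.997), and its count was 9.05% to 10.8% of the Lyz2 count in every library. For mmu_circ_0002318 it was Psap, the precursor of the saposins that aid lysosomal lipid breakdown (r = 0.997), at 9.04% to 9.87% of the Psap count.

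The pair mmu_circ_0014064 and mmu_circ_0014065 followed Apoe, the apolipoprotein that macrophages secrete during cholesterol efflux (r = 0.981 and 0.966), at 6.65% to 9.92% and 5.64% to 9.32% of its count. Lyz2 was also nearest to mmu_circ_0001985 (r = 0.990, 0.781% to 1.08% of its count). Other nearest genes had no such ratio. The row mmu_circ_0005341 exceeded its nearest gene, Asl (r = 0.989), at 1317% to 2226% of its count, and mmu_circ_0006206 lay at 77.1% to 151% of Cox6b1 (r = 0.993), with Rpl35a almost as near (r = 0.992). In 7 of the 10 rows the ratio of the row's count to that of its nearest gene varied by less than 1.5 times between libraries. Whether any of these genes is the host of the row is not given in the table. Between the groups, Lyz2 had a log2 fold change of -0.66 (adjusted p = 0.414, edgeR) beside -0.74 for mmu_circ_0000213.

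Changes between the groups were then tested row by row. After the filter on low counts, 3097 circular rows (31.6%) were tested, which held 95.0% of the circular counts, and 6691 were not, against 42.6% of the other rows tested. At an adjusted p below 0.01, 153 circular rows (4.94% of those tested) changed, of which 96 were higher (3.10%) and 57 lower (1.84%) in ox-LDL. Over all 15751 rows tested, 12.7% were called, 8.11% higher and 4.62% lower, so circular rows were called at a smaller share than the table as a whole in both directions. Groups did not overlap in library-scaled CPM in 233 circular rows (7.52%), compared with 15.0% of all rows tested. The median log2 fold change was 0.11 over the circular rows and 0.10 over all rows, so they lay together around the same centre.

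The split between higher and lower depended on the scaling. Of the called circular rows, 62.7% were higher with TMM, 53.1% with TMM factors taken among circular rows, 48.5% with upper-quartile scaling and 38.0% with library size alone, where 35 were higher and 57 lower. The median over all rows moved from 0.10 to -0.08 on the log2 scale between TMM and library size alone. Therefore no excess in one direction can be read from the counts. With circular counts halved, 1976 circular rows were tested and 74 were higher and 51 lower. None of the 153 rows took the opposite sign under any alternative in which it was tested.

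The share called rose with the level. It was 1.14% of the circular rows under 1 CPM, 3.63% at 1 to 2 CPM, 6.30% at 2 to 5 CPM, 13.2% at 5 to 10 CPM and 14.9% at 10 to 100 CPM. For the other rows it was 6.06%, 14.2%, 15.8%, 15.1% and 14.7% in the same bands. Above 100 CPM it was 1 of 14 circular rows (7.14%) and 18.8% of other rows. Thus, the shares were close between 5 and 100 CPM and lower for the circular rows below 5 CPM, although this difference was not tested. Over all levels together, the median biological coefficient of variation was 36.1% in circular and 31.9% in other rows. Within each band below 10 CPM, the median SE of the log2 fold change was smaller in circular rows (0.303 against 0.343 at 2 to 5 CPM). Above 10 CPM it was larger (0.247 against 0.233 at 10 to 100 CPM).

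**Figure D3:**
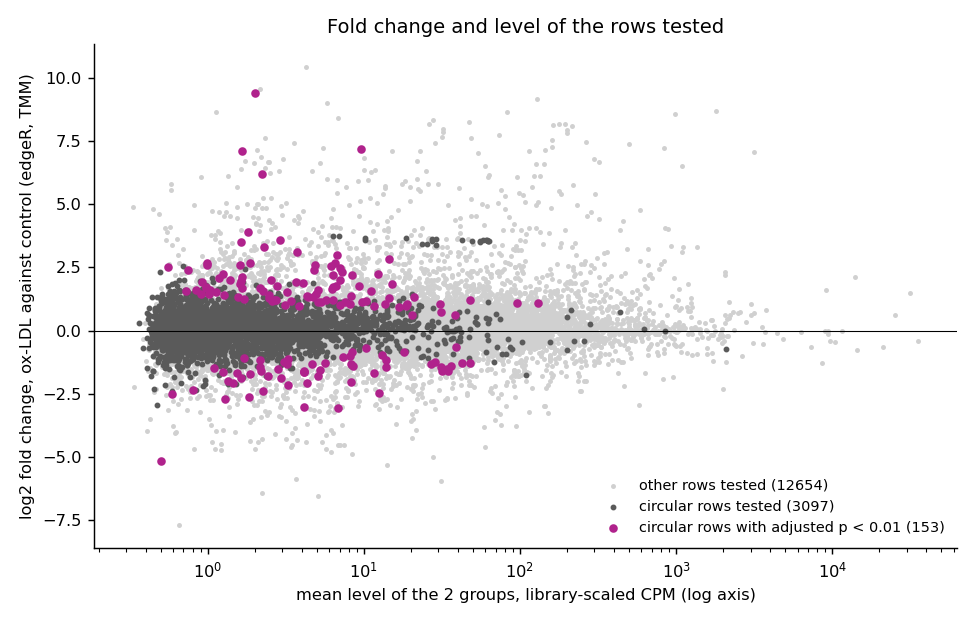
The log2 fold change of ox-LDL against control (edgeR with TMM, y axis) against the mean level of both groups in library-scaled CPM (x axis, log scale) for the rows tested. The 153 called circular rows are set off from the other circular rows, and most circular rows lie below 10 CPM and within 1 log2 unit of 0.

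Among the called rows, 140 changed more than 1 and 44 more than 2 on the log2 scale, with a median of 1.60 in the higher and -1.54 in the lower rows. The largest rises were in mmu_circ_0015565, mmu_circ_0015566 and mmu_circ_0015567, which have consecutive numbers. In mmu_circ_0015566 the counts were 2, 6, 2, 2 and 2 in control and 110, 142, 594, 514 and 506 in ox-LDL libraries. The ox-LDL libraries were all far above the controls, with means of 19.6 ± 10.6 and 0.126 ± 0.0700 CPM (SD, 5 libraries per group), and the fitted log2 difference was 7.19 (SE 0.60, adjusted p = 1.48e-05, edgeR). No counts of mmu_circ_0015567 were found in control, whereas the ox-LDL libraries had 18, 32, 108, 134 and 102, at least 67.5-fold higher against the floor of 6 counts over the control libraries (adjusted p = 5.05e-04, edgeR). In mmu_circ_0015565 the only control library with counts was control 5 with 2, and the ox-LDL libraries had 14, 18, 108, 108 and 78.

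The next rises were smaller. The row mmu_circ_0010676 had 0, 2, 4, 0 and 0 counts in control and 40, 18, 108, 144 and 124 counts in ox-LDL libraries (log2 fold change 6.21, SE 0.78, adjusted p = 1.89e-04, edgeR). The row mmu_circ_0014844 had 0, 12, 6, 2 and 6 counts in control and 62, 30, 66, 52 and 122 counts in ox-LDL libraries (log2 fold change 3.91, SE 0.59, adjusted p = 5.68e-04, edgeR). In both, the lowest ox-LDL library, ox-LDL 2, still lay above every control library.

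The largest falls among rows with at least 1 library-scaled CPM in control were in mmu_circ_0012643, mmu_circ_0010743, mmu_circ_0012961, mmu_circ_0010744 and mmu_circ_0006466. In mmu_circ_0012643 the counts were 236, 354, 290, 226 and 144 in control and 32, 8, 44, 32 and 20 in ox-LDL libraries, with no overlap. Mean levels of 11.5 ± 3.26 and 1.35 ± 0.501 CPM (SD, 5 libraries per group) gave a log2 fold change of -3.06 (SE 0.32, adjusted p = 5.16e-05, edgeR). Its nearest gene was Idi1, an enzyme of isoprenoid and cholesterol synthesis (r = 0.9968), with Cyp51 almost as near (r = 0.9965). Idi1 fell by 3.75 on the log2 scale (adjusted p = 1.94e-05, edgeR), and the row's count was 8.21% to 15.9% of the Idi1 count.

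The pair mmu_circ_0010743 and mmu_circ_0010744, again with consecutive numbers, had log2 fold changes of -3.04 and -2.64, and mmu_circ_0010744 did not pass over the 7 libraries (adjusted p = 0.0120). In mmu_circ_0010743 the control libraries had 180, 176, 144, 154 and 102 counts and the ox-LDL libraries 40, 6, 18, 14 and 8. In mmu_circ_0012961 the log2 fold change was -2.72 (adjusted p = 0.00322, edgeR), and the call was lost without control 4 (adjusted p = 0.0113), without ox-LDL 3 (adjusted p = 0.0116) and over the 7 libraries (adjusted p = 0.0159). In mmu_circ_0006466, with 14 to 28 counts in control and 2 to 6 in ox-LDL libraries, it was -2.49, and over the 7 libraries its adjusted p was 0.0101. A larger fall was found in mmu_circ_0007635, which was under the level set for naming and was picked after its values were seen, from 28, 20, 14, 18 and 20 counts in control to 2 counts in ox-LDL 1 and 0 in the other ox-LDL libraries (adjusted p = 2.73e-04, edgeR).

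**Figure D4:**
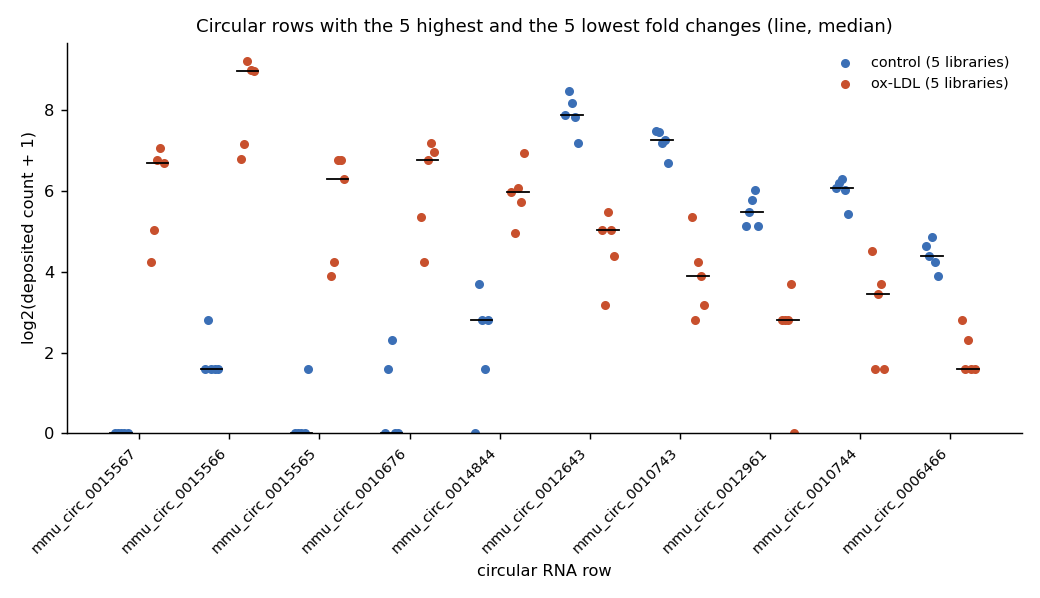
Counts of the 10 called circular RNA rows with the most extreme log2 fold changes, 5 in each direction, among those with at least 1 library-scaled CPM in the higher group, named on the x axis, as log2(deposited count + 1) on the y axis, with 1 point per library. In mmu_circ_0015566 the control libraries lie at 2 to 6 counts and the ox-LDL libraries at 110 to 594, and in mmu_circ_0012643 the control libraries lie at 144 to 354 and the ox-LDL libraries at 8 to 44.

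Circular rows with neighbouring numbers changed alike. Over 1137 pairs of tested rows whose numbers differ by 1, the Spearman correlation of their log2 fold changes was 0.60. It was 0.42 over 897 pairs 2 apart, 0.15 over 690 pairs 5 apart and 0.05 over 596 pairs 10 apart. These are correlations across rows, which are not independent, and no p is given. Of the 153 called rows, 42 lay in 17 runs of consecutive numbers, and all 17 runs went in one direction. Rows in a run cannot be taken as independent of each other.

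The longest run, mmu_circ_0010724 to mmu_circ_0010728, had 5 rows with log2 fold changes of -1.33 to -1.25. Its first row had 930, 886, 974, 872 and 568 counts in control and 320, 282, 338, 250 and 302 in ox-LDL libraries, without overlap in counts. In CPM scaled by TMM the lowest control library (24.0) lay just under the highest ox-LDL library (24.5). Its nearest gene was Siglec15 (r = 0.992), whose count the row exceeded in every library. Siglec15 had only 25, 25, 32, 22 and 16 counts in control and 2, 0, 3, 0 and 1 in ox-LDL libraries. Where Siglec15 had counts, the row lay at 3044% to 30200% of them. The log2 fold change of Siglec15 was -4.03, and this value and the r rest on counts near 0 in ox-LDL. A run of 4, mmu_circ_0002632 to mmu_circ_0002635, had values of -1.98 to -1.45, and a run of 3, mmu_circ_0005797 to mmu_circ_0005799, of 1.64 to 1.83. The most abundant run was the pair mmu_circ_0006736 and mmu_circ_0006737, which rose from 84.2 ± 19.2 to 182 ± 28.3 CPM and from 61.8 ± 14.5 to 130 ± 20.1 CPM (SD, 5 libraries per group). Their log2 fold changes were 1.11 and 1.08 (adjusted p = 0.00222 and 0.00235, edgeR), and both followed Tubb5, a beta-tubulin gene (r = 0.998 and 0.996), at 28.3% to 31.1% and 20.2% to 23.0% of its count.

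Some rows could not be told apart by their counts. Of 6353 rows with at least 20 counts in all, 10 had the same counts as another row in every library, in 5 pairs, among them mmu_circ_0004829 and mmu_circ_0004830 with 42 counts each. Rows that share exons can also share reads, and their values are uncertain where the counting could split them.

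**Figure D5:**
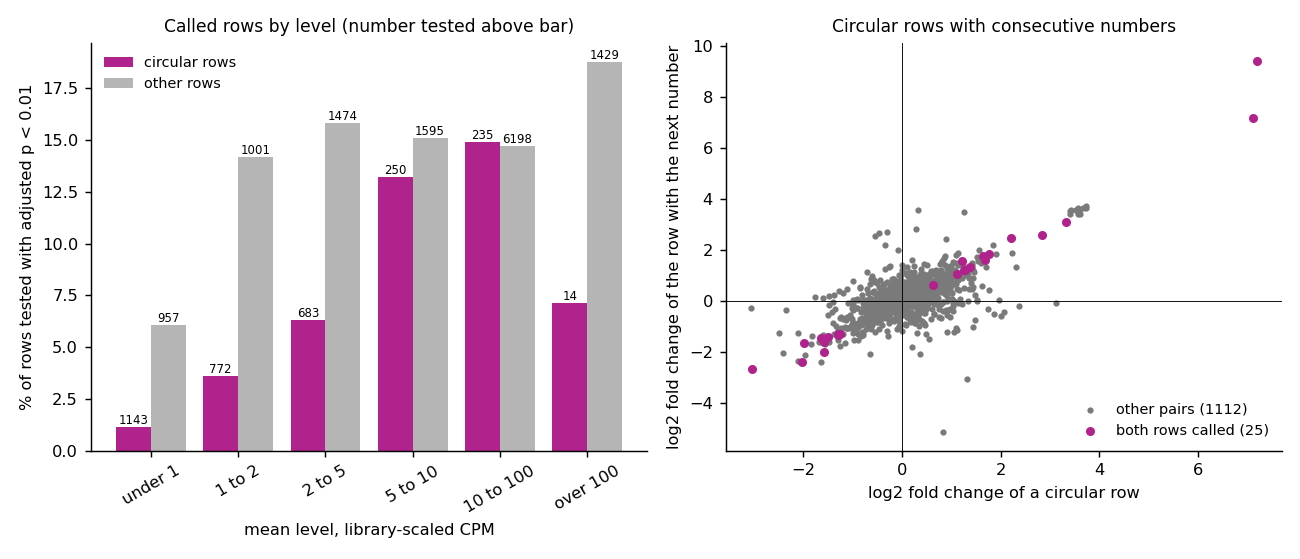
Left, the percent of tested rows with an adjusted p below 0.01 (y axis) by mean level in library-scaled CPM (x axis) for circular and other rows, with the number tested above each bar. Right, the log2 fold change of a circular row (x axis) against that of the row with the next number (y axis) for 1137 pairs. The share of circular rows comes close to that of other rows at 5 to 10 CPM (13.2% against 15.1%), and the pairs lie along the diagonal.

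A chosen list of 50 genes of circle formation, export, decay and its triggers, m6A and RNA sensing was read from the same fit. The list is broad and holds Nlrp3, the inflammasome sensor. Its calls are thus no measure of the machinery that makes and removes circles. Of the 50, all tested, 7 rose, 2 fell and 41 did not pass, against 8.11% and 4.62% of all rows. Their median log2 fold change was 0.22. Among 17 genes of circle formation, Adar, an RNA-editing enzyme that opens the paired repeats that favour back-splicing, rose from 22.0 ± 5.44 to 47.4 ± 12.5 CPM (log2 fold change 1.11, SE 0.23, adjusted p = 0.00409, edgeR). The Adar call was lost without control 1, 2, 3 or 4 or ox-LDL 4 (adjusted p = 0.0117 to 0.0143), over the 7 libraries (0.0120), with library size alone (0.0647) and on the deposited values (0.106). Mbnl1, a splicing factor that binds its own circular RNA, fell by 2.13 on the log2 scale (adjusted p = 3.00e-04, edgeR). Qk, which promotes back-splicing, had a log2 fold change of -0.66 and did not pass (adjusted p = 0.0354, edgeR), although it passed with DESeq2 (adjusted p = 0.00419) and with the length trend as a covariate (adjusted p = 0.00329).

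None of the 4 export or 8 m6A genes passed. Among 13 genes of decay and its triggers, Zc3h12a, an endonuclease of inflammatory mRNAs, rose by 1.98 on the log2 scale (adjusted p = 9.04e-04, edgeR). Eif2ak2, which encodes PKR, had a log2 fold change of 0.68 and did not pass (adjusted p = 0.0321, edgeR). Of 8 sensing genes, 5 rose. Oas3, an oligoadenylate synthetase that senses double-stranded RNA, rose by 3.65 and Nlrp3, the inflammasome sensor, by 2.86 on the log2 scale (adjusted p = 2.10e-04 and 8.42e-04, edgeR), as did Oas1a, Oas2 and, named outside the rule to complete the list, Ifih1. On the deposited values Zc3h12a (adjusted p = 0.0131), Nlrp3 (0.0130) and Ifih1 (0.0754) did not pass. Ifih1 was also lost with library size alone and without control 4, and Oas1a without control 1, 2, 3 or 4 or ox-LDL 5 (adjusted p up to 0.0142). Tlr8, an endosomal RNA receptor, fell, with 100.5 to 153 CPM in control and 3.21 to 44.3 CPM in ox-LDL libraries (log2 fold change -3.20, adjusted p = 0.00485, edgeR). This call was lost over the 7 libraries (adjusted p = 0.0598), with no filter on low counts (0.0374) and without control 1, 2 or 4 or ox-LDL 2, 3 or 5 (0.0102 to 0.0159).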

How the data were processed

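Bulk RNA-seq of 10 libraries, 5 control and 5 ox-LDL, was used. Per the labels, the authors used HISAT2 2.0.5 for alignment (build mm9), SAMtools 1.4 for sorting and StringTie 1.3.3.13 for assembly. Estimated counts per row, not normalized, were deposited in 1 table and rounded to whole numbers here. The authors also deposited a value per row and library with no stated unit, which in gene rows was the count divided by length and library total and was treated as FPKM. In the circular rows the deposited value was the count times 1 constant per library, which followed the circular total and not the library total, so it was used only in an alternative. The counting tool and strand setting are not given in the sources used here.

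Rows were filtered with filterByExpr by group, scaled by TMM with the circular rows kept in, and tested with edgeR 4.0.16 (R 4.3.3) by its robust quasi-likelihood test with Benjamini-Hochberg adjustment over all rows; a call needed an adjusted p below 0.01. SE was derived from the fold change and its F statistic. Single values per library were compared by two-sided exact permutation, computed with numpy 2.4.6. Spearman correlations were taken with scipy 1.17.1. The edgeR step, and not the permutation test, was also run on simulated counts with known changes, and its results are not given here. The simulated rows were drawn independently and with no length trend, so that run does not cover these features of the data. Alternatives were DESeq2 1.42.0, limma 3.58.1, other scalings, filters and thresholds, the replicate block and each library left out. Halved circular counts, the length trend, the 7 libraries, the deposited sum and the rows left out by name were chosen after seeing the data.

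Named rows were the 10 with the highest mean level, the 5 highest and 5 lowest log2 fold changes among called rows that reached 1 CPM in either group's mean, and up to 5 one-sided rows per group. Named genes were called members of the metabolism list, up to 5 per direction, plus Qk, Adar and Eif2ak2; values of some other genes are not reported here. The rows, lists and tests were chosen with earlier results of these data known. Gene symbols were matched to RefSeq names of the assembly GRCm38.p6, and no coordinate of it was used. Floors and permutation p-values cover counting error and the spread between these libraries only. No pair of libraries within a group agreed within sampling noise: over halved circular counts, chi-square was 2.00 to 30.9 per degree of freedom.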

Additional observations from a re-analysis of the deposited data

Results flagged for a closer look

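A library was set apart where its gap to the nearest library of its group was over 0.71 of the group's whole range. This was so in 10 of 64 groups of 5 values examined, and ox-LDL 2 accounted for 5 of them. The number expected by chance was put at 3.2, but the groups are not independent, since several rows were high in the same library. Some groups also hold counts of only a few steps, so the 10 cannot be read as an excess over chance. No cause was tested.

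In ox-LDL 2 the 10 most abundant circular rows held 39.9% of the circular counts, while the other 4 treated libraries lay at 20.9% to 25.7%. In CPM scaled by TMM, as are the levels that follow, it had 4354 for mmu_circ_0000213, where the other 4 lay at 818 to 1244. It had 1382 for mmu_circ_0014123, 1150 for mmu_circ_0006206 and 432 for mmu_circ_0001985, each above the other 4 ox-LDL libraries. These 4 rows were thus high in the same library, one of the 3 that leaned toward short genes.

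In control 5 the sum of the deposited circular values was 94306, below the 96451 to 96764 of the other controls, and mmu_circ_0005341 was at 748 CPM, above their 532 to 581. The single control library with counts of mmu_circ_0015565 was also control 5, at 0.0843 CPM, which is 2 counts. Control 2 had 0.250 CPM of mmu_circ_0015566, which is 6 counts against 2 in each other control. Ox-LDL 5 had 6.98 CPM of mmu_circ_0014844, and the other 4 had 2.42 to 3.10.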

How the results depend on the processing

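The share of counts in circular rows differed by -0.157 percentage points. It was -0.266 without ox-LDL 4 and -0.0672 without ox-LDL 2, the range over libraries left out. It turned to 0.0882 scaled by TMM, and was -0.287 without the block of 21 rows. The sum of deposited values differed by -2994 (p = 0.0238, exact permutation, n = 5 each). Those values carry a constant per library that follows the circular total, so their sum is no measure of this share. The number of rows detected turned to 35.3 higher when libraries were thinned to the smallest circular count, and to 172 higher without ox-LDL 2 (lowest, -284 without control 1). The share of the 10 most abundant rows ranged from -8.45 without ox-LDL 2 to -3.66 without control 4, and was 0.0116 without the most abundant row.

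Against 96 rows higher and 57 lower, DESeq2 called 177 and 138, an adjusted p below 0.05 gave 239 and 156, and an absolute log2 fold change above 2 left 31 and 13. Library size alone gave 35 higher. Lower calls were 117 by limma on log2(deposited value + 1), 86 with no filter beyond 1 count, and 93 with the length trend as covariate. The 7 libraries gave 52 higher. Leaving out 1 library gave 51 to 159 higher and 35 to 125 lower. The highest were without ox-LDL 2 (284 in all, 147 of them shared with the 153), and the lowest without control 4 (86 in all); higher calls also fell below 62 without control 1, 2 or 3 or ox-LDL 3 or 4. Of the metabolism genes, 7 higher and 2 lower, 13 and 5 passed below 0.05, and 2 were higher by limma on deposited values and above a log2 of 2. Lower genes were 5 by DESeq2, 6 with the length trend and 1 with no filter. Leaving out 1 library gave 4 to 13 higher and 1 to 3 lower.

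Deviations of same-numbered libraries correlated at -0.271 to 0.380, and those of differently numbered libraries at -0.404 to 0.432. With ranges this wide, the check cannot decide whether the numbers pair the libraries. With the replicate block, 50 rows were higher and 37 lower, the calls of Oas1a and Ifih1 were lost, and the block gave p = 0.375 for the share of counts, 0.8125 for detection and 0.3125 for the 10 most abundant rows (exact sign-flip test, smallest p 0.0625). The cause of these shifts was not tested. Depth limits the 6691 rows not tested, where a value of 2 is the smallest step.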
